A study of Mus musculus with 4 samples.

Results

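Wnt and Fgf genes encode 2 families of signalling proteins, most of them secreted ligands, and the open chromatin around 39 of these genes, 19 Wnt and 20 Fgf, is described here in mouse embryonic stem (ES) cells. They were chosen by name from the 21883 protein-coding genes of the annotation, by a rule that uses no measured value but that was set with earlier results of these data known, and all 39 were found. Fgf11, Fgf12 and Fgf14 are included by name although their proteins stay inside the cell, so "ligand genes" below covers them too. For each gene, every ATAC-seq peak whose interval overlapped the gene body or 10 kb on either side was taken. ATAC-seq uses a transposase to insert sequencing adapters where DNA is accessible, so a peak marks open chromatin. Both groups were ES cells: 2 libraries were labelled wt and 2 were labelled Hox-/-, cells that per the series title have no Hox function. All 4 libraries came from cells grown with fetal bovine serum, mouse LIF, the GSK-3 inhibitor CHIR99021 and the MEK1/2 inhibitor PD0325901, so the wt cells carried the same culture agents as the mutant cells. Nothing in the labels says whether the replicates were separate cultures or how many clones they came from, so any p-value measures only the spread between these libraries.

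Wnt proteins are lipid-modified ligands that bind Frizzled receptors with Lrp co-receptors. In the β-catenin branch of the pathway this stops the kinase GSK-3 from marking β-catenin for destruction, and CHIR99021 blocks the same kinase without a ligand. Most Fgf proteins bind receptor tyrosine kinases and signal through MEK and ERK, the step that PD0325901 blocks. In the embryo, Wnt3a, Wnt5a, Fgf8 and Fgf17 are made at the posterior end while the body axis elongates, and they are called the axial growth ligands below.

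The peak lists held 213705 and 216795 peaks in wt and 191704 and 200214 in Hox-/-. Each summit has its own line in a list and is counted as a peak. In wt 78147 and 78033 lines shared their interval with another line, and in Hox-/- 66332 and 66199 did. A single open stretch can therefore hold several peaks. The depth of a library relative to the deepest, estimated from the peak caller's background, was 1 and 0.941 in wt and 0.640 and 0.987 in Hox-/-. The 4 Hox clusters held 183 and 188 peaks in wt and 6 and 4 in Hox-/-. All 10 marker genes of ES cells had a peak at a gene end in every library, and 6 of the 10 had a strong one in every library. Peaks are compared by rank within their own library, where rank 1 is the peak with the highest −log10 p, and a strong peak is one of the 50000 best. The lists differ in length and depth, so a rank that differs between libraries is a different place in the order of a list and does not by itself show a change in opening. In bulk libraries such as these, fewer cells with an open region and less opening per cell cannot be told apart.

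The letters of 10 ligand promoters are shown because they carry the contrast that the results turn on. Each line is the 250 bases before a RefSeq start (GRCm38.p6), 5′ to 3′ on the strand of the gene, and the capitals mark CpG dinucleotides, which are dense at CpG islands. Wnt3a (chr11:59290752-59291001, minus strand) and Wnt4 (chr4:137277385-137277634, plus strand) are dense in CpG and had weak peaks in every library. Wnt5b (chr6:119449387-119449636, minus strand), Wnt16 (chr6:22287977-22288226, plus strand) and Fgf23 (chr6:127072652-127072901, plus strand) are poor in CpG and had strong peaks. Fgf22 (chr10:79754859-79755108, plus strand) and Fgf12 (chr16:28753244-28753493, minus strand) belong to the CpG-rich class and had strong peaks. Wnt8b (chr19:44493222-44493471, plus strand), Fgf6 (chr6:127015292-127015541, plus strand) and Fgf21 (chr7:45615491-45615740, minus strand) are poor in CpG and had no peak within 1 kb of their start.
Wnt3a: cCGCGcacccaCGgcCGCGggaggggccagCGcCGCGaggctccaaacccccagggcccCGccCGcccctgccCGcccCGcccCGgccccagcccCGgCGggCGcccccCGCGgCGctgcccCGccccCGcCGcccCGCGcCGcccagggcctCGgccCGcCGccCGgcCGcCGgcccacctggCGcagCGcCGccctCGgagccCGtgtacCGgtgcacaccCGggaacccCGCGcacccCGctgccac
Wnt5b: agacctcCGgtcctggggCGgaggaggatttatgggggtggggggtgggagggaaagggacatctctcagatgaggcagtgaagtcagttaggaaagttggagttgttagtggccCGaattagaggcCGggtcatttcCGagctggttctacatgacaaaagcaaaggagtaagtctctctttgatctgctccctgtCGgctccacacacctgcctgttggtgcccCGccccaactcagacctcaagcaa
Wnt16: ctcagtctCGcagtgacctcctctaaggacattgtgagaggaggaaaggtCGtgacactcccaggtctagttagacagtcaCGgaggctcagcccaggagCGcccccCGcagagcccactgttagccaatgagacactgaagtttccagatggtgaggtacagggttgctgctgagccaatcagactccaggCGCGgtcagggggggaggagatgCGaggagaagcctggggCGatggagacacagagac
Fgf22: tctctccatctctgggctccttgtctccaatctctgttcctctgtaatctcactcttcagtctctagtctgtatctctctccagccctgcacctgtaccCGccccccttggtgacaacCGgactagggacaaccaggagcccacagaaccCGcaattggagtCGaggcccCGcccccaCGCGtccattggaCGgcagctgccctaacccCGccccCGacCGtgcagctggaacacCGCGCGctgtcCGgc
Fgf23: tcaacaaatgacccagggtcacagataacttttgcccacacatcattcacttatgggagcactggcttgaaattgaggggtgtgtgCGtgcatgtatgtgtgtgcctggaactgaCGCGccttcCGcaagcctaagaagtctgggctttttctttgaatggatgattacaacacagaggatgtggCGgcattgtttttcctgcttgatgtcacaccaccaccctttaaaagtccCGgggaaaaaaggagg
Wnt4: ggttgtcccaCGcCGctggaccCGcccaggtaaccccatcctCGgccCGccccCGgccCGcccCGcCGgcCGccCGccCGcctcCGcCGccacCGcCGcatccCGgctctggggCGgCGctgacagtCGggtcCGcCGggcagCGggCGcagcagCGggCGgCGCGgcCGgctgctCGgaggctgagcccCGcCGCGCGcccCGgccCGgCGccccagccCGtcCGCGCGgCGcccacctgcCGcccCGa
Fgf12: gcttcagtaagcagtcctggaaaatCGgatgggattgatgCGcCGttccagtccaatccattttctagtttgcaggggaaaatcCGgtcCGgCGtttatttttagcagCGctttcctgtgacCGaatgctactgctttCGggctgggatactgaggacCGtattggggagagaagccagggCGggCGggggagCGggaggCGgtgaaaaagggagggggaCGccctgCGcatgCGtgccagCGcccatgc
Wnt8b: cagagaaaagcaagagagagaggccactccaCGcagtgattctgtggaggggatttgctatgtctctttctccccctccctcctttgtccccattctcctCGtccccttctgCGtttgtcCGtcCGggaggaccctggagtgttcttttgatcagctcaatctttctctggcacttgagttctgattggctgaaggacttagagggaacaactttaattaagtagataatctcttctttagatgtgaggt
Fgf6: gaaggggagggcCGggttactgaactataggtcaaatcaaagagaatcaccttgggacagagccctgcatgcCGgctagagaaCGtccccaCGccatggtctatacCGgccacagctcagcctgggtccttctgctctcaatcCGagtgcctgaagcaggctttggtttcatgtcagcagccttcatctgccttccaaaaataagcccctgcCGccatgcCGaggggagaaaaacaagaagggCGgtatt
Fgf21: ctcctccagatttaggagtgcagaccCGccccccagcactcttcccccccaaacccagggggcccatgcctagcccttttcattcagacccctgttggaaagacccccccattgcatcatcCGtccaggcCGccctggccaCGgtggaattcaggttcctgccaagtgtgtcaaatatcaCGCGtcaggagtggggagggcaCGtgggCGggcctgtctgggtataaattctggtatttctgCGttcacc

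In these printed stretches the Wnt4 promoter had 44 CpG dinucleotides and the Wnt3a promoter 41. Fgf12 had 18 and Fgf22 had 15. The others had 9 or fewer, with 9 in Wnt16, Fgf6 and Fgf21, 7 in Wnt5b, 6 in Fgf23 and 5 in Wnt8b. These promoters were picked to show each combination of CpG content and peak strength, so no relation between the 2 can be read from them.

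A peak at a gene end was counted where its summit lay within 1 kb of either end of the gene, because the gene table gives no strand. Such a peak was called at 33 and 32 of the 39 ligand genes in wt (84.6% and 82.1%) and at 33 and 32 in Hox-/-. Over all protein-coding genes the shares were 70.5% and 70.6% in wt and 69.1% and 69.8% in Hox-/-, so an end peak of some strength was at least as common among the ligand genes. The mean was 32.5 ± 0.707 (SD, n = 2) in each genotype, with a difference of 0 (exact permutation test over libraries, two-sided, p = 1). With 2 libraries against 2 that test cannot give a p below 0.33. In all 4 libraries together, 28 ligand genes (71.8%) had an end peak, against 67.1% of all genes.

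Those end peaks were mostly weak. A strong end peak was present at 12 ligand genes in each of the 4 libraries (30.8%), while 50.0% and 50.2% of all genes had one in wt and 50.5% and 50.2% in Hox-/-. Strong in all 4 libraries were 11 ligand genes (28.2%), against 47.0% of all genes. These were Wnt6, Wnt8a, Wnt10a and Wnt16 (4 of 19 Wnt genes, 21.1%) and Fgf11, Fgf12, Fgf15, Fgf17, Fgf18, Fgf22 and Fgf23 (7 of 20 Fgf genes, 35.0%). The median over genes of the best end rank was 105596 for the ligand genes and 49634 for all genes. With summits within 500 bp the strong ligand genes were 7 (17.9%) against 41.9% of all genes, and within 2.5 kb they were 17 (43.6%) against 54.7%, with Wnt3, Wnt7a, Wnt7b, Wnt9a, Fgf5 and Fgf9 added. With only the 25000 best peaks called strong it was 7 (17.9%) against 34.4%. In each of these settings the share was lower in the ligand genes.

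**Figure D1:**
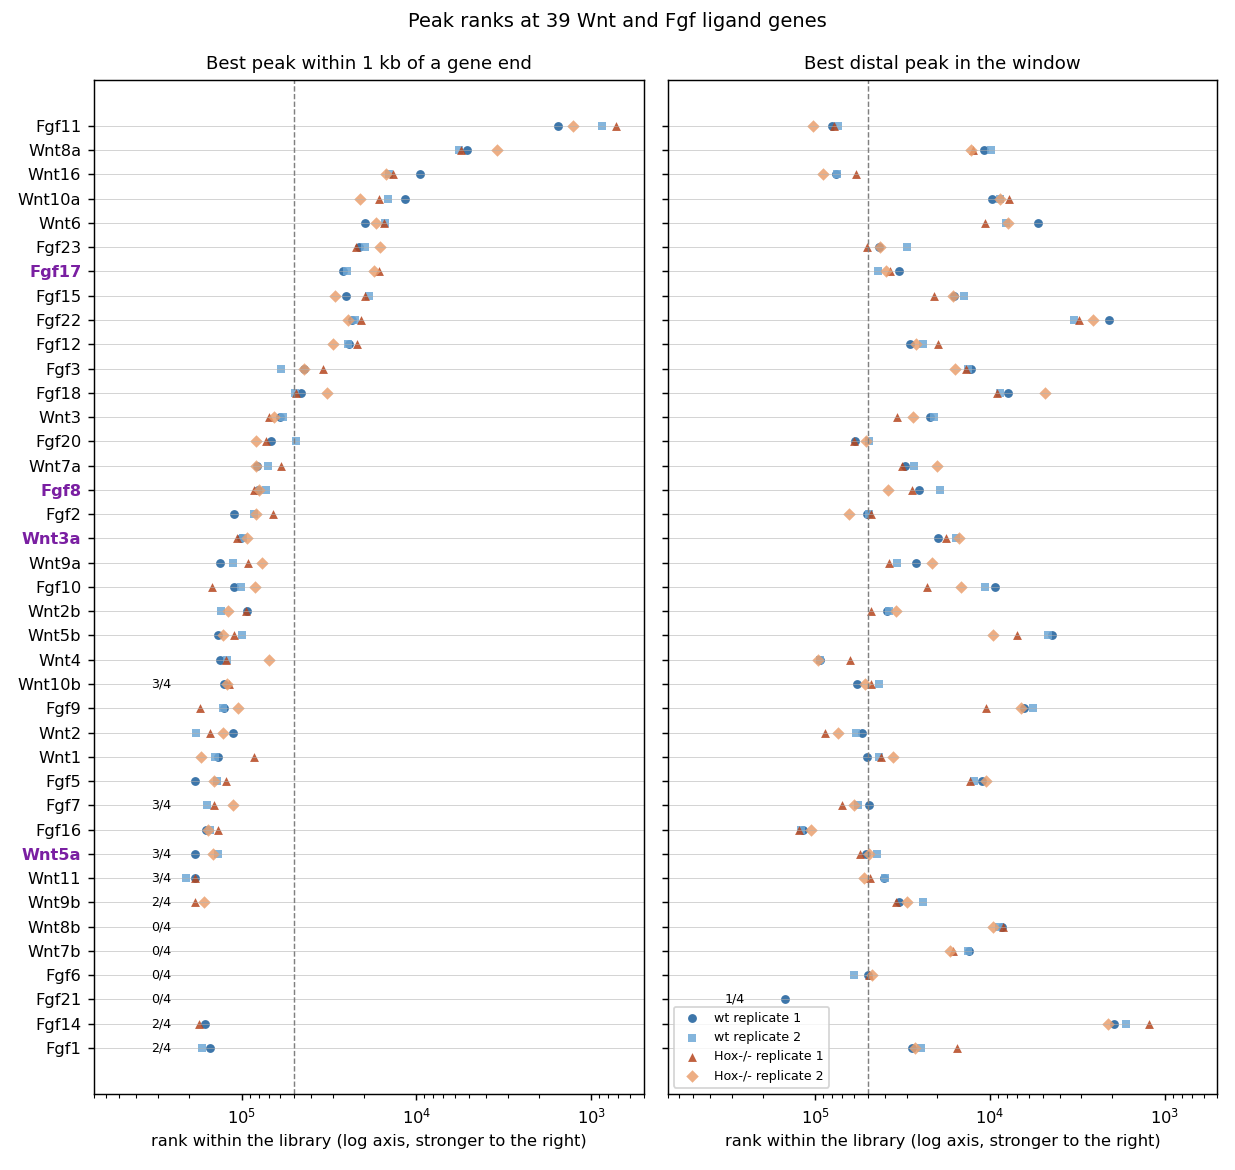
Best rank of a peak within 1 kb of a gene end (left) and of a distal peak (right) for each of the 39 ligand genes, on log axes with stronger peaks to the right; each symbol is 1 library, the dashed line is rank 50000, n/4 gives the number of libraries with a peak where it is under 4, and the axial growth ligands are in bold purple. On the left 11 genes have all 4 symbols to the right of the line, and on the right 24 do.

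The 6 genes outside the axial group with the best end ranks were Fgf11, Wnt8a, Wnt16, Wnt10a, Wnt6 and Fgf23. Fgf11 (chr11:69796068-69802944) is one of the intracellular Fgf-related factors that are not secreted, and its end peak ranked 1543 and 866 in wt and 719 and 1270 in Hox-/-. That peak lies at the far end of Fgf11 and is shared with an end of the neighbouring gene Chrnb1. At its RefSeq start Fgf11 ranked 57352 and 76995 in wt and 45260 and 63985 in Hox-/-, far lower in the order and strong in 1 library. The table end on the start side ranked 43287 and 33450 in wt and 40529 and 45284 in Hox-/-, strong in each library. The region of that peak is nearest to an end of the gene Tmem102. Wnt8a (chr18:34542327-34548061), a ligand of the β-catenin branch active in the early embryo, had an end peak ranked 5117 and 5669 in wt and 5536 and 3470 in Hox-/-. It is not shared with another gene, and the ranks of the genotypes overlap.

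Wnt16 (chr6:22288178-22298522), known for its part in bone and joints, ranked 9549 and 14341 in wt and 13637 and 14850 in Hox-/- at its start. Its fold over background, as the authors' peak caller gave it, was 17.9 and 15.3 in wt and 15.5 and 15.2 in Hox-/-. The 2 neighbours Wnt6 and Wnt10a on chromosome 1, ligands of ectodermal organs, were both among the strong ones. Wnt10a (chr1:74792019-74804176) ranked 11618 and 14447 in wt and 16424 and 20928 in Hox-/-, and here both wt ranks were above both Hox-/- ranks. Wnt6 (chr1:74754342-74785322) ranked 19640 and 15108 in wt and 15324 and 17022 in Hox-/-, with the peak at its far end. At the other table end of Wnt6 a peak was called in wt only, at ranks 210474 and 214167, near the bottom of those lists. The only RefSeq start of Wnt6 ranked 197780 in wt replicate 2 and 167499 in Hox-/- replicate 1, and no peak was called there in the other libraries. Fgf23 (chr6:127072902-127082296), an endocrine Fgf that controls phosphate, ranked 21359 and 19578 in wt and 22059 and 16106 in Hox-/-.

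Among the other strong ends, Fgf22 (chr10:79755051-79757795), a ligand of synapse formation, ranked 23425 and 22367 in wt and 20626 and 24731 in Hox-/-. Fgf15 (chr7:144896532-144900953), the mouse endocrine Fgf of the gut that lowers bile acid synthesis, ranked 25206 and 18716 in wt and 19767 and 29395 in Hox-/-. Fgf12 (chr16:28157783-28753243), a sodium channel partner of the same intracellular group as Fgf11, ranked 24165 and 24768 in wt and 21821 and 29982 in Hox-/-. The genotypes overlap for each of these 3 genes. Fgf18 (chr11:33116970-33147400), a ligand of cartilage and lung, was just inside the limit with 45824 and 49652 in wt and 48742 and 32571 in Hox-/-. Its fold over background was only 3.74 and 3.57 in wt and 3.38 and 3.95 in Hox-/-. When peaks were ranked by that fold instead, the median end rank of Fgf18 over the libraries was 136657 in place of 47283, outside the limit. Fgf3 (chr7:144838612-144843348), a ligand of the inner ear and tail bud, was just outside: 44146 and 59463 in wt and 34307 and 43757 in Hox-/-.

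No end peak was called in any library at 4 ligand genes (10.3%), against 27.1% of all genes. These were Wnt7b (chr15:85535437-85581821), a ligand of the lung and placenta, Wnt8b (chr19:44493472-44514273), a ligand of the forebrain, Fgf6 (chr6:127015542-127024718), a muscle Fgf, and Fgf21 (chr7:45613890-45615490), a hormone made in the liver. For Wnt7b and Wnt8b this did not mean a closed neighbourhood. At Wnt7b the best distal peak was not the same one in both genotypes. The region chr15:85582769-85583430 ranked 13250 and 13358 in wt and 16524 and 20527 in Hox-/-, lower in both Hox-/- libraries. It lies just beyond the gene and counts as a strong end peak when summits within 2.5 kb are allowed. The region chr15:85568392-85568801 ranked 19625 and 22313 in wt and 16399 and 16861 in Hox-/-, higher in both Hox-/- libraries. The best distal peak of Wnt8b, a region at chr19:44487239-44487859 upstream of the start shown above, ranked 8520 and 8847 in wt and 8398 and 9561 in Hox-/-. Fgf6 had 2 distal regions near the limit of strength: chr6:127005621-127006360 ranked 76410 and 60247 in wt and 49444 and 53203 in Hox-/-, and chr6:127019195-127019899 ranked 49729 and 62705 in wt and 54003 and 47540 in Hox-/-. Fgf21 had the lowest mean number of peaks, 2.25 in the shortest window (21.6 kb), with a single distal call at rank 148088 in wt replicate 1. Per 100 kb this is 10.4 peaks, which is not the lowest density. The window also holds a region at an end of Izumo1, ranked 37073 and 54553 in wt and 28998 and 31853 in Hox-/-.

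An end peak in both libraries of 1 genotype and neither of the other was found at 1 ligand gene in each direction (2.56%), against 0.640% of all genes for wt only and 0.187% for Hox-/- only. Fgf1 (chr18:38838672-38929470), a broadly acting Fgf, had it in wt only, at ranks 151856 and 168409. Wnt9b (chr11:103727362-103775272), a kidney ligand, had it in Hox-/- only, at ranks 185144 and 164971. That end of Wnt9b is shared with the start of Wnt3, and its peak is part of the merged region chr11:103773855-103774420, which was called in all 4 libraries. As merged regions, described below, the Fgf1 end was still in wt only and Wnt9b had no region in 1 genotype only. All 4 values are in the weak part of the lists, and the shallowest library is a Hox-/- one. The part of depth in these single calls was not tested. With summits within 2.5 kb, 0 ligand genes were called in 1 genotype only, against 0.539% of all genes in wt only and 0.169% in Hox-/- only. With summits within 500 bp, Wnt6, Fgf1 and Fgf8 were called in wt only (3 genes, 7.69%, against 0.685%) and 0 in Hox-/- only (against 0.206%), and the number of genes with an end peak was lower by 3 in Hox-/-. At Fgf8 this rests on a shift of the summit across that limit, from 493 and 496 bp in wt to 529 and 519 bp in Hox-/-.

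Strand and start could be read from the RefSeq promoter table for 29 of the ligand genes. Wnt5a, Wnt7b, Wnt8a, Wnt10a, Fgf1, Fgf8, Fgf15, Fgf16, Fgf17 and Fgf20 have no entry. Within 1 kb of any of its RefSeq starts, 23 of the 29 (79.3%) had a peak in all 4 libraries, against 66.9% of all genes with an entry. A strong one was present at 8 (27.6%), against 48.8% of all such genes: Wnt5b, Wnt9b, Wnt16, Fgf9, Fgf12, Fgf18, Fgf22 and Fgf23. Wnt8b, Fgf6 and Fgf21 had none in any library (10.3%, against 29.0%). At the far end of the gene table, 4 had a peak in all libraries (17.8% of all such genes) and 2, Wnt6 and Fgf11, had a strong one (6.23% of all such genes).

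Some ligand genes have a RefSeq start more than 1 kb inside the ends of the gene table. The strongest of these belongs to Wnt5b (chr6:119432531-119544824), a close relative of Wnt5a: the start printed above ranked 4402 and 4690 in wt and 7008 and 9654 in Hox-/-. Its outermost ends ranked only 136819 and 98943 in wt and 110481 and 128252 in Hox-/-. The only RefSeq start of Wnt9b ranked 34814 and 24263 in wt and 35614 and 29884 in Hox-/-, and the only one of Fgf9 (chr14:58070671-58112854), a ligand of the testis and lung, ranked 37169 and 36985 in wt and 35547 and 33469 in Hox-/-. When peaks at every RefSeq start were counted as well, these 3 genes joined the strong group. It then held 14 of 39 (35.9%), against 50.7% of all genes, and 31 of 39 (79.5%) against 70.6% had a peak of any strength in all libraries.

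**Figure D2:**
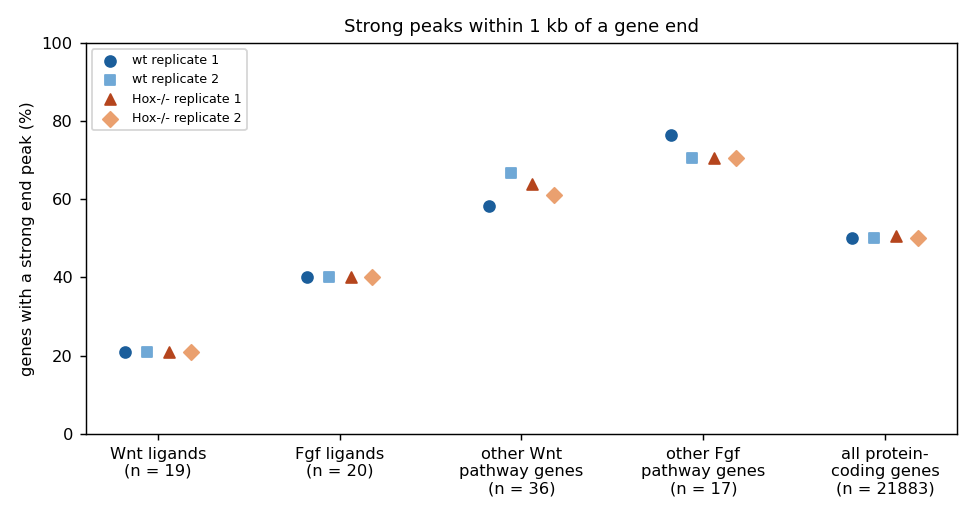
Share of genes in percent (vertical axis) with a strong peak within 1 kb of a gene end, for the Wnt and Fgf ligand genes, the other genes of both pathways and all protein-coding genes; each symbol is 1 library. Wnt ligands lie at 21.1% and Fgf ligands at 40.0% in each library, below the 50.0% to 50.5% of all genes, and both lists of other pathway genes lie above it.

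The genes that make, receive and pass on the signals were more often strong at their ends than the ligand genes. Of 36 other Wnt pathway genes (receptors, co-receptors, secretion factors, the destruction complex, Tcf/Lef factors, inhibitors and R-spondins with their receptors), 20 had a strong end peak in all libraries (55.6%, against 47.0% of all genes). Of 17 other Fgf pathway genes (receptors, Klotho co-receptors, adaptors, feedback inhibitors and Etv factors), 11 had one (64.7%, against the same 47.0%). The median best end rank was 33399 in the Wnt pathway list and 18381 in the Fgf pathway list, against 119367 for the Wnt ligands and 82032 for the Fgf ligands. No gene of either list had an end peak in wt only (0.640% of all genes) or in Hox-/- only (0.187%), or lacked one in every library (27.1%). All of them had an end peak in all 4 libraries except Notum, a secreted inhibitor that removes the lipid of Wnt proteins, which ranked 203511 and 138526 in wt and 178610 in Hox-/- replicate 1 and was not called in Hox-/- replicate 2. Notum is named here because it was the exception, after its values were seen.

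**Figure D3:**
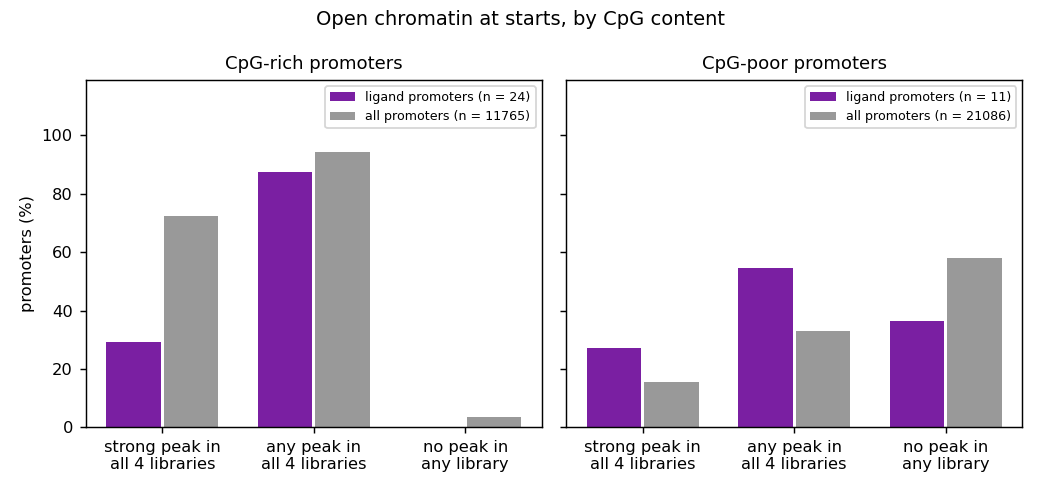
Share of RefSeq promoters in percent (bars from 0) with a strong peak in all 4 libraries, any peak in all 4, or no peak, for CpG-rich (left) and CpG-poor (right) promoters of ligand genes (purple) and of all genes (grey). In the CpG-rich class 29.2% of ligand promoters are strong against 72.4% of all; in the CpG-poor class 27.3% are strong against 15.4%.

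Because CpG-rich promoters are open in most cell types, the starts were split by CpG content over 300 bases, with CpG-rich meaning an observed over expected CpG ratio of at least 0.6. Of 35 ligand promoters in the RefSeq table, 24 were CpG-rich (68.6%), against 35.8% of all 32851 promoters. Among these 24, 21 had a peak in all libraries (87.5%, against 94.3% of all CpG-rich promoters) and 0 had no peak in any library (against 3.48%). A strong peak in all libraries was present at only 7 of them (29.2%), against 72.4% of all CpG-rich promoters. Among the 11 CpG-poor ligand promoters, 3 were strong (27.3%, against 15.4%), 6 had a peak in all libraries (54.5%, against 33.0%) and 4 had none (36.4%, against 58.1%). The low share of strong peaks was thus found in the CpG-rich class, to which most ligand promoters belong. The promoters of 1 gene are not independent: among the 4 starts of Fgf12, 2 lie so close that they share a peak. The 7 strong CpG-rich promoters belong to Fgf9, Fgf12, Fgf18, Fgf22 and Wnt9b only, and several of them are starts of Fgf12.

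The printed Wnt3a and Wnt4 promoters are examples of that class. Wnt4 (chr4:137277635-137299501), a ligand of kidney and female gonad, had its start peak at 132652 and 120502 in wt and 122718 and 69269 in Hox-/-. Wnt7a (chr6:91363981-91411353), a dorsal limb ligand, ranked 81879 and 70978 in wt and 59215 and 82820 in Hox-/-. Wnt3 (chr11:103774175-103818021), which is needed to form the primitive streak, ranked 60456 and 57794 in wt and 69505 and 65019 in Hox-/-. Fgf5 (chr5:98254184-98277033), a ligand that is switched on when pluripotent cells leave the naive state, ranked 183535 and 137460 in wt and 122314 and 144544 in Hox-/-. These CpG-rich starts were open in each library and outside the 50000 best in each.

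Short motifs were counted on both strands of the same 300-base promoters. GGGCGG, bound by Sp and Klf factors, was in 71.4% of the ligand promoters and in 35.7% of all promoters. This word holds a CpG, and 68.6% of the ligand promoters were CpG-rich against 35.8% of all. Its share within each CpG class was not tested. The TCF/LEF words CTTTGAT or CTTTGAA were in 14.3% and 8.65%, and the Cdx and posterior Hox words TTTATGG or TTTATTG in 8.57% and 7.20%. TATAAA was in 8.57% and 13.6%, the AP-1 word TGANTCA in 5.71% and 7.81%, and CCAAT in 28.6% and 37.4%. With 35 promoters a share of 8.57% is 3 promoters, so the shares of 14.3% or less rest on 5 promoters or fewer. The Wnt5b promoter printed above holds 1 TCF/LEF word and 1 Cdx or posterior Hox word. A match to a word is a description of the letters only.

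More than 1 kb from gene ends the ligand genes had strong peaks. A distal peak was one in the window with its summit over 1 kb from every protein-coding gene end. Of the peaks in ligand windows, 307 and 327 in wt and 281 and 302 in Hox-/- were distal, counting a peak once for each window it stands in. With each peak counted once, 74.6% to 76.0% of the peaks of each library in the windows were distal. A strong distal peak was present at 28 and 31 ligand genes in wt (71.8% and 79.5%), where 55.9% of all genes had one in each library. In Hox-/- it was present at 29 and 28 (74.4% and 71.8%), against 55.3% and 56.0%. In all 4 libraries 24 ligand genes (61.5%) had one, against 50.6% of all genes. With RefSeq starts taken out of the distal class the count was 22 (56.4%), against 48.0%. Some of the strong distal peaks lay just past the 1 kb limit. At Wnt3, a gene of 43847 bp, the best distal summit was 42833 to 42840 bp from the lower end. In every library Wnt3, Wnt7a, Wnt7b, Wnt9a, Fgf5 and Fgf9 had a strong peak between 1 and 2.5 kb from an end of their own. The distal shares are not given here at that wider limit.

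The median best distal rank was 28964 for the ligand genes and 40631 for all genes, the reverse of the order at gene ends. The best distal peak ranked above the best end peak in all 4 libraries at 29 ligand genes (74.4%), against 40.7% of all genes. It ranked below it in all 4 at 5 (12.8%, against 35.5%): Wnt8a, Wnt16, Fgf11, Fgf17 and Fgf23. The best peak of a gene can be a different one in different libraries. This was so for the distal peak of 12 of the 38 ligand genes with one in at least 2 libraries, and for the end peak of 3 of 35 (Wnt2, Wnt3a and Fgf16), so an order of the genotypes is read below from merged regions where the peaks differ. Windows of ligand genes were somewhat longer, with a median of 41.9 kb against 37.2 kb, and a longer window has more chances of a strong peak. Per 100 kb of window the median ligand gene had 21.0 peaks and the median gene 15.0. The density ranged from 2.63 at Fgf14 to 41.6 at Fgf8, where 6 of 12 and 5 of 11 peaks in wt and 3 of 8 and 4 of 13 in Hox-/- lay at an end of another gene.

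The strongest distal peak belonged to Fgf14 (chr14:123974441-124677686), a neuronal member of the intracellular group with a gene body of 703246 bp. The region chr14:124033140-124033937 inside the gene ranked 1960 and 1668 in wt and 1224 and 2108 in Hox-/-, while the table end on the start side of Fgf14 was called in only 1 library of each genotype, at 161030 and 175796. Fgf22 followed with the region chr10:79766790-79767859, at 2089 and 3294 in wt and 3098 and 2568 in Hox-/-, but that region covers a RefSeq start of the neighbouring gene Rnf126. With RefSeq starts taken out, the best distal peak of Fgf22 ranked only 82891 and 92583 in wt and 130445 and 108436 in Hox-/-. Fgf9 had a region inside the gene, chr14:58101147-58101993, at 6372 and 5700 in wt and 10549 and 6666 in Hox-/-. Both wt ranks of that Fgf9 region were above both Hox-/- ranks. For Fgf14 and Fgf22 the genotypes overlapped.

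Fgf5 and Fgf10 each had a weak peak within 1 kb of an end and a strong one farther away. The best distal peak of Fgf5 ranked 11154 and 12364 in wt and 12984 and 10498 in Hox-/-, against the end ranks given above, none of which was among the 100000 best. That Fgf5 peak lies inside the gene, 1721 to 1736 bp from the start, and it counts as a strong end peak when summits within 2.5 kb are allowed. Fgf10 (chr13:118714699-118792573), the limb and lung bud ligand, had a distal rank of 9414 and 10761 in wt and 23028 and 14728 in Hox-/-, and end ranks of 110472 and 100719 in wt and 147961 and 83574 in Hox-/-. Fgf18 had a distal rank of 7875 and 8782 in wt and 9178 and 4832 in Hox-/-, in the same merged region as its end peak. No strong distal peak in any library was found at 6 ligand genes (15.4%, against 39.2% of all genes): Wnt2, Wnt4, Wnt16, Fgf11, Fgf16 and Fgf21. Fgf16 (chrX:105764477-105776532), a heart ligand and the only one of the 39 on the X chromosome, ranked between 105484 and 124374 at its best distal peak, which was not the same one in every library.

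The remaining ligand genes had end peaks below the 50000 best in most or all libraries. Fgf2 (chr3:37348477-37410106), a ligand widely used in stem cell culture, had end ranks of 111144 and 85297 in wt and 66479 and 82758 in Hox-/-, so both Hox-/- ranks were above both wt ranks. Wnt9a (chr11:59306849-59333552), a joint ligand, had the same order with 132983 and 111725 in wt and 92150 and 76267 in Hox-/-. Wnt1 (chr15:98789857-98793830), the midbrain ligand, ranked 136633 and 142842 in wt and 85434 and 170064 in Hox-/-, where the genotypes overlap. They also overlap at Wnt2b (chr3:104944805-104961709), with 92603 and 130812 in wt and 94962 and 119819 in Hox-/-. Fgf20 (chr8:40279166-40286953), an inner ear and kidney ligand, ranked 67545 and 48986 in wt and 72414 and 82413 in Hox-/-, with both wt ranks higher in the order. Wnt10b, Fgf7 and Wnt11 each had an end peak in 3 libraries, and none of those calls was strong. Wnt2, at 111640 and 182359 in wt and 152071 and 127373 in Hox-/-, had weak end peaks in all 4.

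The axial growth ligands were examined next, since Hox genes act in the same posterior tissue. Wnt3a (chr11:59248036-59290751), which keeps the progenitors of the posterior mesoderm, had an end peak at its start at ranks 101288 and 98322 in wt and 106126 and 93604 in Hox-/-, the last of these from a separate peak. Fgf8 (chr19:45736491-45742941), a ligand of the primitive streak and tail bud, had one at 80419 and 72603 in wt and 85115 and 79653 in Hox-/-. Wnt5a (chr14:28504543-28527448), which directs tissue elongation, had a very weak one at 185281 and 136906 in wt and 144999 in Hox-/- replicate 2, and none in Hox-/- replicate 1. For each of these 3 genes the genotypes overlap and no library was strong. Fgf17 (chr14:70636203-70642268), a close relative of Fgf8, was the exception with 26169 and 24839 in wt and 16441 and 17393 in Hox-/-. Both Hox-/- ranks of Fgf17 were above both wt ranks, and this end is shared with the neighbouring gene Dmtn. Ranked by fold, the median end rank of Fgf17 was 74854 in place of 21116 and the end was no longer strong. By fold 9 ligand genes had a strong end peak in all libraries (23.1%, against 42.4% of all genes), and Fgf17 and Fgf18 were those lost.

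At distal peaks, 3 of the 4 axial growth ligands were strong in all libraries, as were 21 of the 35 other ligands and 50.6% of all genes. The best distal rank of Wnt3a was 19948 and 15739 in wt and 17947 and 15116 in Hox-/-. It was 25350 and 19449 in wt and 27859 and 38217 in Hox-/- at Fgf8, and 33033 and 43546 in wt and 37330 and 39564 in Hox-/- at Fgf17. At Fgf17 this peak belongs to the same merged region as the end peak shared with Dmtn, so it is not a separate stretch of open chromatin. Wnt5a lay at the limit, with 51064 and 44304 in wt and 55780 and 49574 in Hox-/-. At Fgf8 both wt ranks were above both Hox-/- ranks, and at Fgf17 the genotypes overlapped. At Wnt3a and Wnt5a the best distal peak of wt replicate 1 was another one than in the other libraries, and their regions are given below. The numbers of peaks in the window were 20 and 19 in wt and 18 and 20 in Hox-/- at Wnt3a, and 12 and 11 in wt and 8 and 13 in Hox-/- at Fgf8. They were 11 and 10 in wt and 9 and 10 in Hox-/- at Wnt5a, and 9 and 8 in wt and 7 and 7 in Hox-/- at Fgf17.

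**Figure D4:**
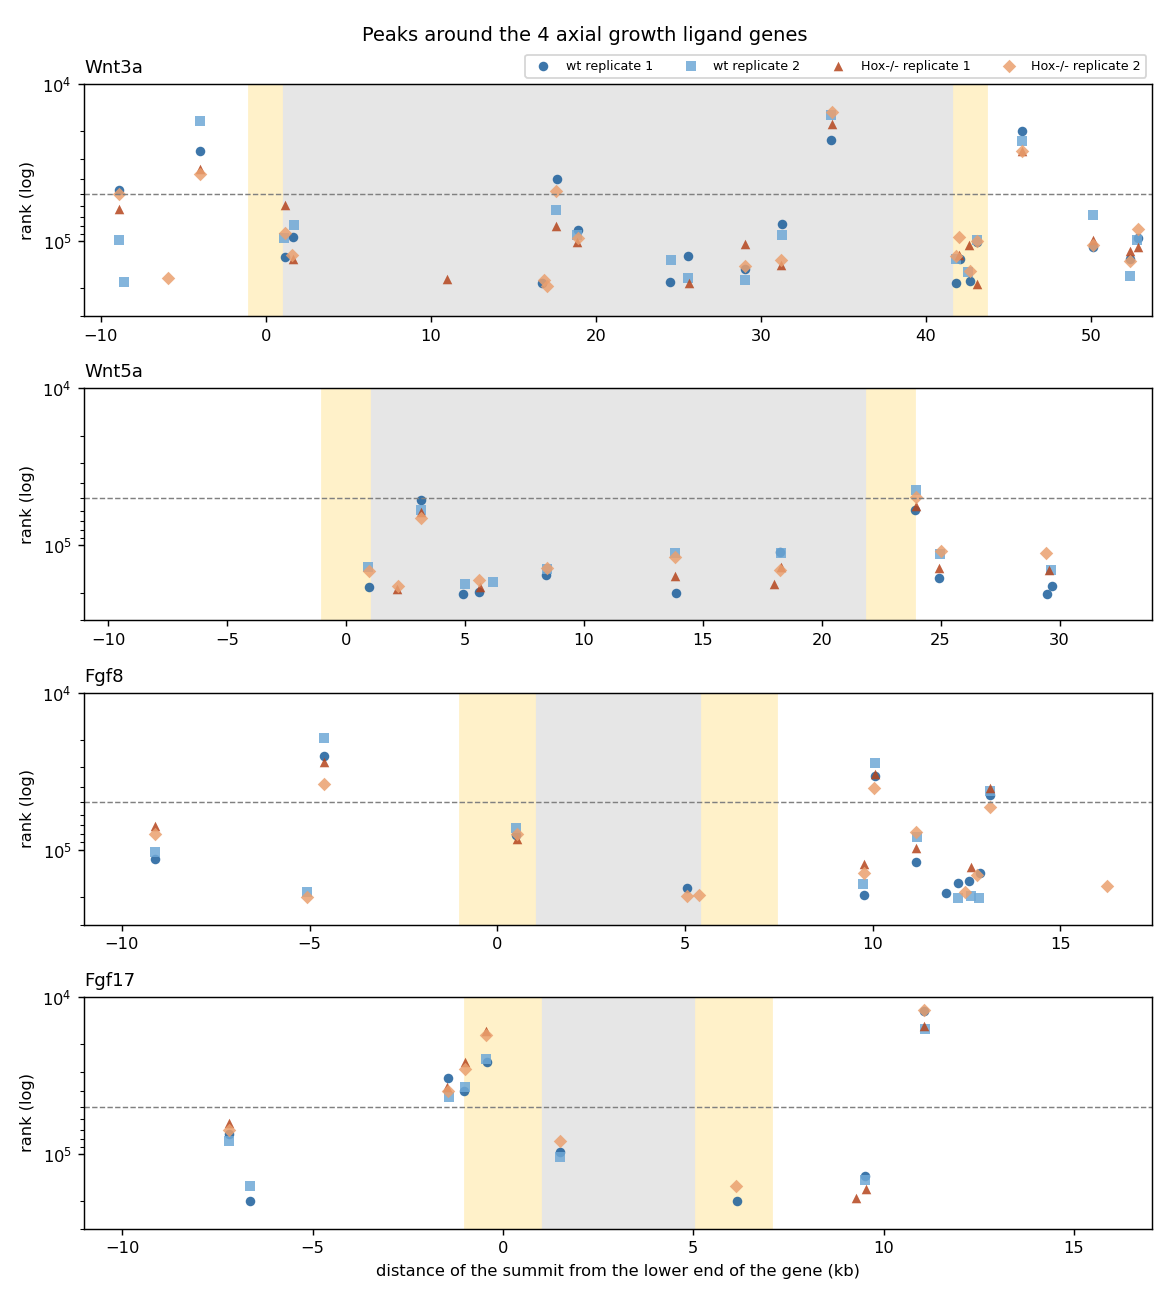
Peaks in the windows of Wnt3a, Wnt5a, Fgf8 and Fgf17: distance of the summit from the lower end of the gene in kb (horizontal) against rank on a log axis with stronger peaks upward; grey is the gene body, yellow the 1 kb on both sides of each gene end, the dashed line rank 50000, and each symbol 1 library. The strongest peaks of Wnt3a, Wnt5a and Fgf8 lie outside the yellow bands, and at Fgf17 peaks above the line lie in and beside the lower yellow band and, to the right of the gene, at an end of Npm2.

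The strongest region of Wnt3a, chr11:59281899-59282602 inside the gene, ranked 22555 and 15739 in wt and 17947 and 15116 in Hox-/-. A second one, chr11:59293621-59294027 beyond the start, ranked 19948 and 22974 in wt and 26595 and 26725 in Hox-/-. Another, chr11:59243815-59244329 beyond the far end, ranked 26567 and 17167 in wt and 34979 and 37152 in Hox-/-. In both of these regions outside the gene, both wt ranks were above both Hox-/- ranks. At Fgf8 the leading region, chr19:45731184-45732194, had the same order, with the ranks given above for its best distal peak. A weaker Fgf8 region, chr19:45727161-45727571, had the reverse order, at 113986 and 103745 in wt and 71039 and 79127 in Hox-/-. At Wnt5a the region chr14:28528156-28528828, just beyond the upper end, ranked 59502 and 44304 in wt and 55780 and 49574 in Hox-/-, which overlap. Its summits lie 23924 to 23955 bp from the lower end of a gene of 22906 bp, just past the 1 kb limit. With summits within 2.5 kb it counts as an end peak. The region chr14:28507501-28507922 inside Wnt5a, the best one in wt replicate 1, ranked 51064 and 59391 in wt and 61482 and 66860 in Hox-/-, with both wt ranks above both Hox-/- ranks. At Fgf17 the region over the lower end, chr14:70634354-70636107, had both Hox-/- ranks above wt. So had chr14:70628801-70629254, at 75272 and 82992 in wt and 63787 and 70467 in Hox-/-. Of the regions called in all libraries, 2 ranked higher and 4 lower in both Hox-/- libraries at Wnt3a. These numbers were 1 and 2 at Wnt5a, 1 and 1 at Fgf8, and 2 and 0 at Fgf17. Over all such regions of the genome, 21.5% ranked higher and 19.6% lower.

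The axial growth ligands were then set against the 35 other ligands within each library, as the log2 of the ratio of median best ranks, where a negative value means that the axial ligands rank higher. For end peaks it was −0.30 and −0.39 in wt and 0.01 and 0.05 in Hox-/-. The wt mean was −0.34 ± 0.06 and the Hox-/- mean 0.03 ± 0.03 (SD, n = 2), 0.37 apart (two-sided exact permutation test over libraries, p = 0.33, its lowest possible value). The genotypes did not overlap. The median rank of the axial ligands was 90854 and 85463 in wt and 95621 and 86629 in Hox-/-, which overlap, and that of the other ligands was 111640 and 111725 in wt and 94962 and 83574 in Hox-/-, which do not. The difference was −0.08 when summits within 2.5 kb were counted, so its direction depended on the distance allowed. It was 0.16 when ranked by fold and 0.07 with RefSeq starts added. The contrast over all 4 libraries, −0.16, was 0.42 with summits within 2.5 kb and 0.39 with RefSeq starts added. It was −0.08 without wt replicate 2. Between 14 and 18 of the 35 other ligands ranked above the axial median in each library.

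For distal peaks the contrast was 0.02 and 0.34 in wt and −0.07 and 0.53 in Hox-/-. The wt mean was 0.18 ± 0.22 and the Hox-/- mean 0.23 ± 0.43 (SD, n = 2), 0.05 apart (two-sided exact permutation test over libraries, p = 1). It was −0.11 without wt replicate 1, −0.25 without Hox-/- replicate 2 and −0.06 with windows of 5 kb. The contrast over all 4 libraries, 0.21, was −0.32 with windows of 5 kb and −0.06 with RefSeq starts taken out. It was 0.10 without Hox-/- replicate 2. Between 17 and 22 of the other ligands ranked above the axial median. The spread between libraries was larger than the difference between genotypes.

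Genotypes were compared over all ligand windows last. The windows held 394 and 411 distinct peaks, counted by summit, in wt and 361 and 379 in Hox-/-, with means of 402.5 ± 12.0 and 370 ± 12.7 (SD, n = 2). Hox-/- minus wt was −32.5 peaks (two-sided exact permutation test over libraries, p = 0.33, its lowest possible value). As a share of each list these are 0.184% and 0.190% in wt and 0.188% and 0.189% in Hox-/-, so the shares overlap between genotypes while the numbers do not.

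Merging peaks of the 4 libraries that overlapped by at least 1 bp gave 366 regions in ligand windows out of 208141. Called in both wt and neither Hox-/- library were 16 of them (4.37%), against 3.84% of all regions. Called in both Hox-/- and neither wt library were 5 (1.37%), against 1.23%. Both shares are near the background. The best rank of any wt-only region was 99791 and of any Hox-/- only region 105152, so none of them was strong. They lay in the windows of 12 ligand genes for wt only and 5 for Hox-/- only, and Wnt5b (gene body of 112294 bp) held 4 and 1 of them. Strong in all libraries were 64 of the 366 (17.5%), against 17.9% of all regions.

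**Figure D5:**
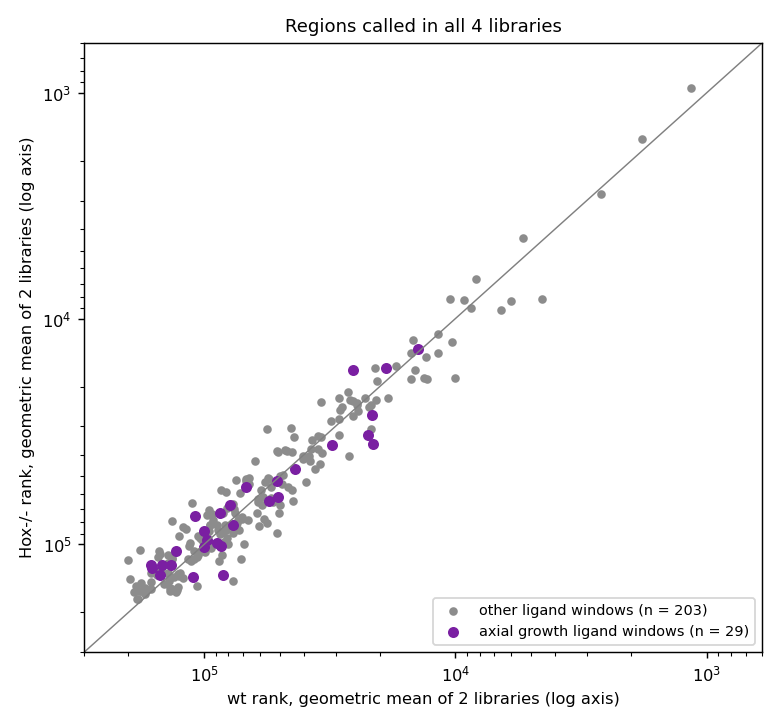
Geometric mean rank in wt (horizontal) against Hox-/- (vertical), on log axes with stronger regions to the upper right, for the 232 regions of ligand windows called in all 4 libraries; purple marks the axial growth ligand windows and the line is equality. Points lie along the line in both sets, with log2 shifts between −0.92 and 0.86.

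Of the regions called in all 4 libraries (232, 63.4% of the 366, against 59.0% of all regions), 48 ranked higher in both Hox-/- libraries than in both wt libraries (20.7%, against 21.5%). Lower in both were 42 (18.1%, against 19.6%). The median log2 rank shift, positive where Hox-/- ranks higher, was 0.03 in ligand windows and 0.02 over all regions. A shift of at least 0.5 in either direction was found in 29 (12.5%), against 13.2%. In the axial growth windows the regions called in all 4 libraries also numbered 29. Of these, 6 ranked higher (20.7%, against 21.5%) and 7 lower (24.1%, against 19.6%) in Hox-/-. By each of the counts over all ligand windows, the shares were near the background of the genome.

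Among the regions called in all 4 libraries, the 5 largest shifts toward wt were at Wnt6, Fgf10, Wnt5b, where there were 2, and Wnt3a. The region chr1:74779036-74779554 inside Wnt6 ranked 70425 and 83688 in wt and 140518 and 150860 in Hox-/-, a log2 shift of −0.92. The region chr13:118705286-118706320 outside Fgf10 is the best distal peak of that gene given above, with a shift of −0.87 that was −0.55 without Hox-/- replicate 1 and −0.14 when ranked by fold. The region chr6:119448363-119450149 covers the printed Wnt5b start and had a shift of −0.86, which was −0.12 by fold. A second Wnt5b region, chr6:119543280-119544964, ranked 55016 and 47728 in wt and 83339 and 95209 in Hox-/- (shift −0.80), and it lies 225 bp from an end of the predicted gene Gm52875 and overlaps another RefSeq promoter of Wnt5b itself. The Wnt3a region beyond the far end, described above, had a shift of −0.76, which was −0.44 without wt replicate 2.

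Among the same regions the 5 largest shifts toward Hox-/- were at Fgf1, Wnt4, Fgf7, Wnt5b and Wnt8a. The region chr18:38840953-38841473 inside Fgf1 ranked 56166 and 56201 in wt and 30072 and 31692 in Hox-/-, a shift of 0.86. The region chr4:137296272-137296784 inside Wnt4 ranked 177369 and 102491 in wt and 63601 and 97129 in Hox-/- (0.78). This Wnt4 shift was 0.38 without wt replicate 1, 1.17 without wt replicate 2 and 0.47 without Hox-/- replicate 1. The region chr2:126044417-126044802 inside Fgf7, a ligand of epithelial growth, ranked 201269 and 200694 in wt and 100160 and 138581 in Hox-/- (0.77). The Wnt5b region chr6:119554245-119555008 ranked 102536 and 122130 in wt and 65339 and 66117 in Hox-/- (0.77), and the Wnt8a region chr18:34555311-34555674 ranked 174049 and 186992 in wt and 110643 and 102168 in Hox-/- (0.76, and 0.45 by fold). Of these 10 regions only those of Fgf10, the Wnt5b start and Wnt3a were strong in all libraries, and all 3 ranked higher in wt. The 10 were picked by their shift, and the direction of the strong ligand regions as a set was not tested. Wnt5b had shifts in both directions within 1 window.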

How the data were processed

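ATAC-seq peak lists of 4 mouse ES cell libraries were analysed, 2 wt and 2 Hox-/-, grouped by the genotype label. Per the submitters' processing notes, the tools were cutadapt 4.8, Bowtie2 2.5.0, Picard 2.18.2, bedtools 2.30.0, MACS2 2.2.9.1 and deepTools 3.5.4, and the build was mm10, which is GRCm38. The notes give no order or settings. How duplicate or mitochondrial reads were handled and whether reads were shifted for the transposase is not given in the sources used here. Peaks were called for each library on its own, since each has its own deposited list. Each line of the deposited lists has a fold over background, a −log10 p and a −log10 q, all the authors' peak caller's own; the deposited integer score column was not used. The lowest −log10 q was 1.30 in each library.

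Lines were ranked by −log10 p within a library, and every summit was counted. Gene ends came from the RefSeq table of GRCm38.p6, and starts, strands and promoter letters from the RefSeq promoter table, which matched 29 of the 39 genes with 35 starts. Regions are peaks of the 4 libraries merged at an overlap of 1 bp. The deposited lists hold no read counts. Relative depth is the 0.1% quantile of the background that the fold and p of each line imply under a Poisson model; with lines of −log10 p up to 250, 100% of the implied pileups lay within 0.05 of a whole number. Tests are exact permutation tests over libraries, computed with Python 3.11.15, numpy 2.4.6, pandas 2.3.3 and scipy 1.17.1. The counting script was tested on simulated peaks.

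The ligand genes, the gene lists and the tests were chosen with earlier results of these data known. All 39 ligand genes could be named. The axial growth ligands, the 6 others with the best end ranks, genes with no end peak or one in 1 genotype only, and the 5 largest rank shifts each way were given in full. Replicate numbers did not pair the libraries: over 122749 regions the deviations of same-numbered libraries had a correlation of 0.00367.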

Additional observations from a re-analysis of the deposited data

How the results depend on the processing

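Of 123 recomputed main results, 79 stayed within the limits set for a change without a change of sign, 34 moved and 10 changed sign. The shifts of the 10 named regions moved by over 1.5 times in 8 of 50 recomputations, given above beside the regions, and changed sign in 0. With summits within 500 bp, Hox-/- minus wt in genes with an end peak was −3, and such a peak was in wt only at 3 genes (Wnt6, Fgf1 and Fgf8) and in Hox-/- only at 0 (background 0.685% and 0.206%). With 2.5 kb both of these were 0 (background 0.539% and 0.169%), the axial end contrast was 0.42 and its difference between genotypes −0.0823, both the reverse of the values reported. Strong end peaks were at 7 genes (500 bp), 17 (2.5 kb) and 7 (25000 best peaks). With a −log10 q of at least 5, end peaks in Hox-/- only were at 0 genes (background 0.151%) and regions in Hox-/- only numbered 3 of 330 (0.909%, background 1.00%). With the 100000 best peaks only, end peaks were in wt only at 0 genes (background 0.434%) and in Hox-/- only at 1 (2.56%, background 0.361%). That gene was Wnt9a and not Wnt9b. Of 193 regions, 3 were then in wt only (1.55%, background 2.33%) and 5 in Hox-/- only (2.59%, background 2.10%), so the larger number in wt did not hold. With windows of 5 kb, regions in Hox-/- only numbered 3 of 308 (0.974%, background 1.23%), the axial distal contrast was −0.32 and its difference between genotypes −0.0567, both reversed. With RefSeq starts added, a setting chosen after seeing the data, end peaks in Hox-/- only were at 0 genes (background 0.160%) and the axial contrasts reversed, to 0.39 at ends and −0.0648 at distal peaks. The median shift of ligand regions, 0.03 as reported, was −0.0166 with windows of 20 kb and ranged from −0.0103 to 0.0623 as 1 library was left out, the lowest without Hox-/- replicate 2. The cause was not tested in these cases.

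Leaving out 1 library relaxes each rule that asks for both libraries of a genotype, and the counts rose for that reason: regions in wt only 29 to 32 (background 6.83% to 10.3%), in Hox-/- only 10 to 19 (2.90% to 5.88%), ranking higher in Hox-/- 84 to 105 (36.1% to 37.8%) and lower 75 to 88 (32.5% to 35.0%). End peaks in 1 genotype only were then at 1 to 2 genes in each direction (2.56% to 5.13%, background 1.17% to 1.54% for wt only and 0.448% to 0.663% for Hox-/- only). The axial distal difference between genotypes ranged from −0.25 to 0.35, with the reversed values −0.11 without wt replicate 1 and −0.25 without Hox-/- replicate 2. With the replicate block, in which each library is compared only with its same-numbered partner, 64 regions ranked higher and 61 lower in Hox-/- (background 29.6% and 26.9%), since that rule is looser. Ranked by fold, the best end rank of 13 of the 32 genes with an end peak in at least 3 libraries moved beyond the spread between libraries. CpG limits of 0.5 and 0.75, added after seeing the data, did not change the count of strong CpG-rich promoters beyond 1.5 times. Depth limits what the lists can show: Hox-/- replicate 1 is the shallowest, and the absence of a weak peak there does not show closed chromatin.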

Other observations

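Some ligand windows owe their strongest peak to another gene. Near Fgf2, the region chr3:37419026-37420644, at an end of the neighbouring gene Spata5, ranked 7779 and 14167 in wt and 7879 and 8518 in Hox-/-, while the best end peak of Fgf2 itself was outside the 50000 best. Near Fgf17, the region chr14:70646897-70647650, at an end of Npm2, ranked 12352 and 15947 in wt and 15391 and 12116 in Hox-/-. Counting a peak once for each window, 26 to 31 peaks per library lay at an end of another gene only, and a further 6 to 10 at an end both of the ligand gene and of another gene.

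The 39 windows are not all separate. Those of Wnt1 and Wnt10b, Wnt3 and Wnt9b, Wnt3a and Wnt9a, and Wnt6 and Wnt10a overlap, with 11650 bp between Wnt1 and Wnt10b, 16097 bp between Wnt3a and Wnt9a and 6696 bp between Wnt6 and Wnt10a, and 14 to 18 peaks of each library stood in 2 windows. Wnt11, a ligand of the non-canonical branch, has 2 RefSeq starts, and the one inside the gene ranked 47140 and 40184 in wt and 50190 and 52653 in Hox-/-, while the outer one ranked 185773 and 207076 in wt and 184098 in Hox-/- replicate 1 and was not called in Hox-/- replicate 2. At the inner start the ranked summit of wt replicate 1 lay 755 bp upstream. In the other libraries it lay 130 to 150 bp downstream, so these ranks are not all of the same peak and give no order of the genotypes. The only RefSeq start of Fgf14 lies inside the gene and ranked 80290 and 54552 in wt and 49626 and 52437 in Hox-/-, with both Hox-/- ranks above both wt ranks.

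Near the Wnt3a start several weak summits were called in each library. One lay between −400 and −342 bp from the start, where negative values are upstream, in all 4 libraries, at ranks 101288 and 98322 in wt and 188625 and 99393 in Hox-/-. It was the best-ranked one within 1 kb in both wt libraries, and a summit inside the gene was the best-ranked one in both Hox-/- libraries, at 106126 and 93604. Summits inside the gene were called in wt too, the best at ranks 130150 and 129487. The CpG-dense stretch printed for Wnt3a covers the first 250 bases upstream.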
